A study of Mus musculus with 10 samples.

Results

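Neurotransmitter receptor subunits are the proteins from which nerve and muscle cells build the receptors for glutamate, GABA, glycine and acetylcholine. Their genes were taken from the table by symbol among protein-coding rows, as the ionotropic (Gria, Grin, Grik, Grid) and metabotropic (Grm) glutamate receptor genes, the GABA-A (Gabra to Gabrr) and GABA-B (Gabbr) genes, the glycine receptor genes (Glra, Glrb) and the nicotinic acetylcholine receptor genes (Chrn). The rule found 68 genes among 42465 gene models, with 4 AMPA, 7 NMDA, 5 kainate, 2 delta and 8 metabotropic glutamate, 19 GABA-A, 2 GABA-B, 5 glycine and 16 nicotinic members. RNA came from Ednrb-/- and wild-type (WT) mouse neural tubes taken at embryonic day 9.5 and cultured with the neural crest cells they give off, in 5 biological replicates of each genotype. Both genotypes were cultured for 4 days in medium holding 20 nM EDN3, the ligand peptide of the receptor that Ednrb encodes, and 10% fetal bovine serum, so no explant was without added ligand. The labels do not give the strain, the deleted part of Ednrb, the litters or any pooling of embryos, and the p-values measure the spread between these libraries. The study asked how the loss of Ednrb acts on pigment cell precursors, and receptor genes were not its stated subject.

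Ionotropic receptors are channels assembled from several subunits around a pore, whereas metabotropic glutamate and GABA-B receptors are coupled to G proteins. AMPA, NMDA and kainate receptors pass cations, and GABA-A and glycine receptors pass chloride, which in immature neurons often flows outward and depolarises the cell. Nicotinic receptors are built from neuronal subunits in the nervous system and from a separate muscle set (Chrna1, Chrnb1, Chrnd and Chrne or Chrng) at the neuromuscular junction. In the embryonic spinal cord, GABA, glycine and acetylcholine receptors appear before most synapses and take part in early spontaneous activity.

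Levels are given as FPKM, fragments per kilobase of gene model scaled to library depth. Comparison between libraries depends on this scaling. With each library rescaled to the same sum (TPM), 755 genes rose and 2064 fell, against 990 and 1966 in the main fit described below. Between 13022266 and 19532570 reads per library lay behind them. Ednrb had 7.15 ± 3.41 FPKM in Ednrb-/- and 52.3 ± 7.16 FPKM in WT libraries (SD, n = 5 each; p = 0.00794 by exact two-sided permutation, the lowest value possible with 5 against 5 libraries). The libraries also differed in the RNA levels of cell type markers. The summed level of 21 neuron markers was 2682 to 3054 FPKM in Ednrb-/- and 1706 to 2133 FPKM in WT libraries, and 17 of the 21 rose. The summed level of 17 smooth muscle and fibroblast-like mesenchyme markers was 89.5 to 383 FPKM in Ednrb-/- and 497 to 3374 FPKM in WT libraries, and 14 of the 15 tested fell. The remaining marker, Dcn, rose, with 44.2 ± 32.2 FPKM in Ednrb-/- and 6.72 ± 2.80 FPKM in WT libraries (limma, adjusted p = 0.0178). WT replicate 2 stood apart from the other WT libraries. It had the lowest mean correlation with its own genotype among them (0.9502, against 0.959 to 0.971). Every Ednrb-/- library had a lower one (0.9314 to 0.9496). WT replicate 2 also had the highest summed level of the posterior Hox genes of groups 10 to 13 of any library (175 FPKM). Its mesenchyme sum was 497 FPKM, against 1703 to 3374 FPKM in the other WT libraries and at most 383 FPKM in Ednrb-/- libraries, so leaving it out also widens the difference in mesenchyme markers between the genotypes. Results that change without it are given both ways, that library having been left out on grounds of these data.

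Most receptor genes were at low levels and only a few differed between the genotypes. In Ednrb-/- explants 3 members rose, Gabbr1 and Glra2 among them, and Chrnb1 fell, and the other 36 members tested did not pass. Of the 68 members, 40 had at least 0.5 FPKM in at least 5 of the 10 libraries and entered the test, which was limma on log2(FPKM + 0.5) with Benjamini-Hochberg adjustment over all 15156 genes tested and a threshold of 0.05. The 3 members that rose were 7.5% of the 40, beside 6.53% of all genes tested that rose, and the 1 that fell was 2.5%, beside 13.0% of all genes that fell. Under quantile normalization the all-gene calls split into 1603 higher and 1730 lower, against 990 and 1966 here. Both shares of the members rest on few genes, and the share that rose is close to the background. The median log2 fold change, Ednrb-/- minus WT, was 0.19 over the 40 members and 0.0048 over all genes. Of the members 30 had a positive value (75%, beside 50.7% of all genes tested) and 10 a negative one. At an unadjusted p under 0.05 there were 10 members, 25% of the 40, beside 33.1% of all genes tested.

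Receptor classes differed widely in level. Only 7 members averaged more than 10 FPKM over all libraries, 27 lay between 1 and 10 FPKM and 34 below 1 FPKM. Among the 7 were Gabbr1 (45.3 FPKM), Chrna4 (33.6), Grik5 (31.8), Grik3 (17.8), Chrnb2 (17.1) and Chrna3 (14.6), which are a GABA-B, 2 kainate and 3 neuronal nicotinic subunits.

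**Figure D1:**
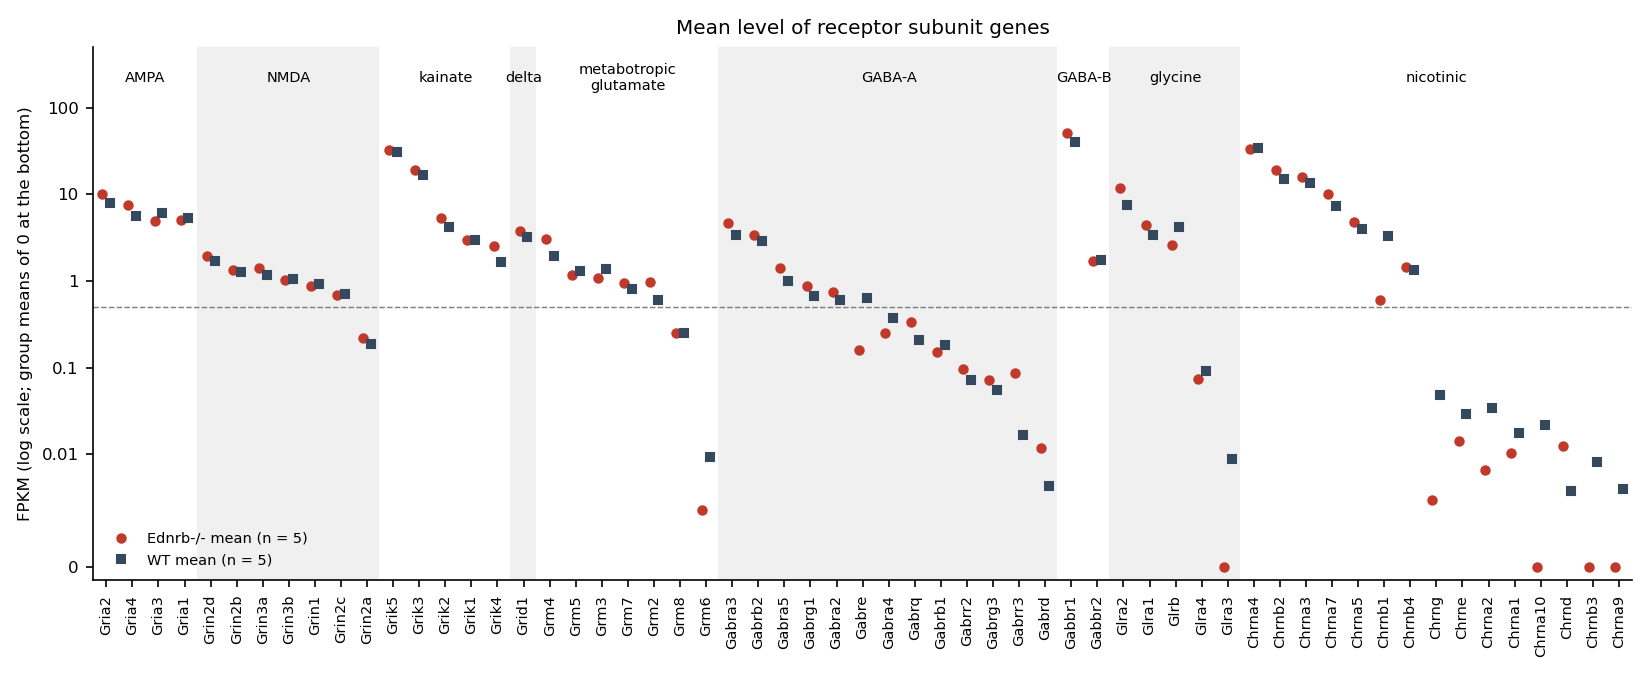
Mean FPKM on a log scale of receptor subunit genes, by class, in Ednrb-/- (circles) and WT explants (squares), n = 5 each; the dashed line marks 0.5 FPKM and the 4 members without a read are not drawn. Gabbr1 stands highest at 45.3 FPKM over all libraries, while most muscle nicotinic genes lie near the bottom.

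**Figure D2:**
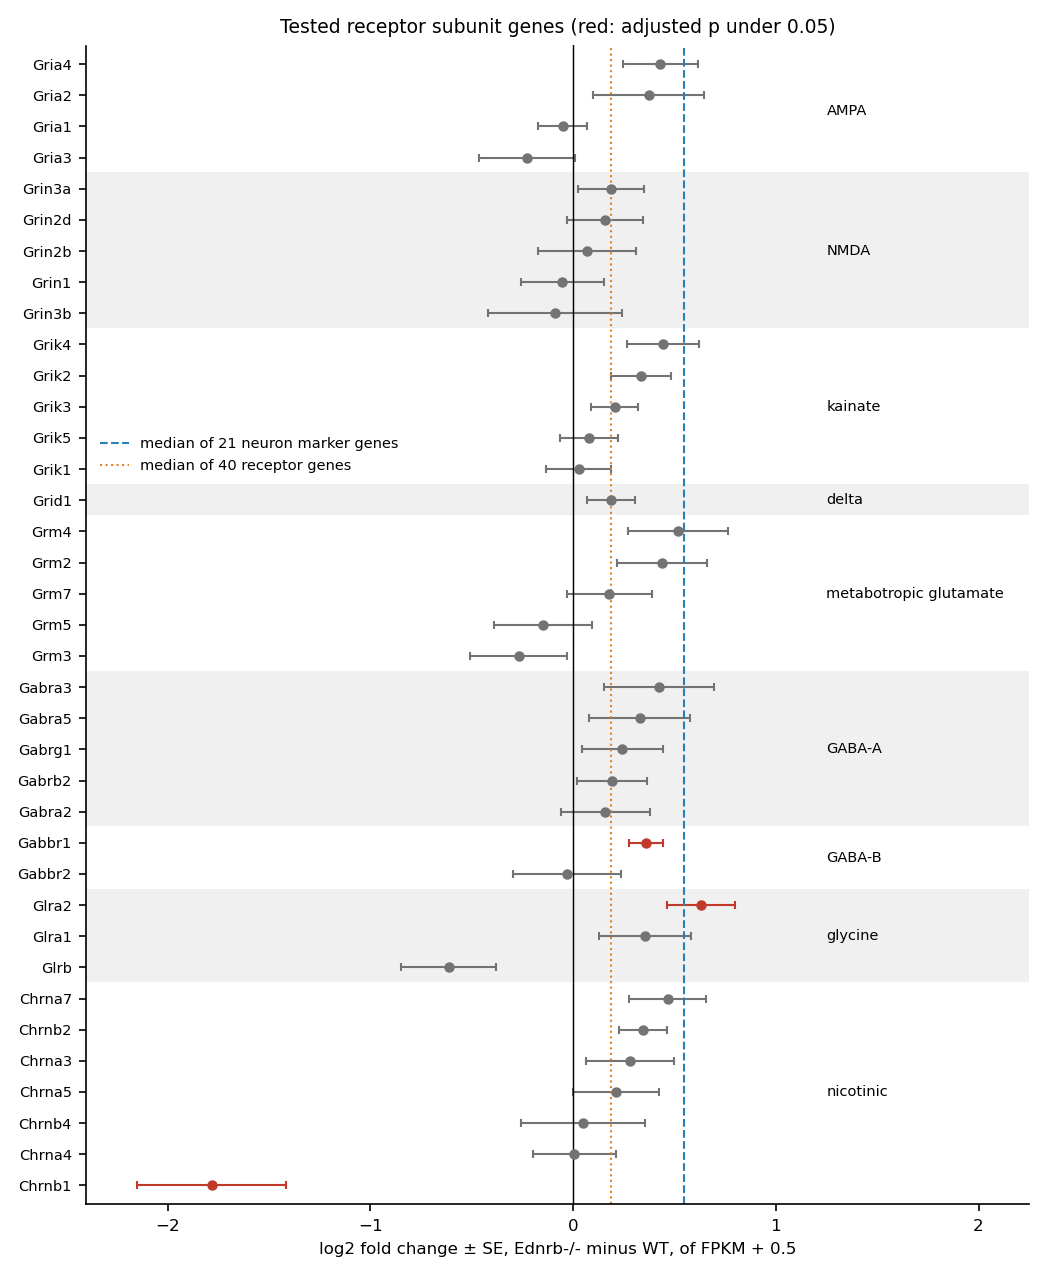
Log2 fold change with its standard error, Ednrb-/- minus WT, of tested members, with the median of the neuron markers (dashed) and of all 40 members tested (dotted). Gabbr1 and Glra2 (red) lie to the right and Chrnb1 (red) far to the left at -1.78.

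Among GABA receptor genes Gabbr1 rose. Gabbr1 encodes the GABA-B subunit that binds GABA, and it was the receptor gene with the highest level. It occupies bases 39009625 to 39040725 of chromosome 17 (plus strand), in the coordinates of C57BL/6NJ, the strain assembly named by the table's identifiers. Gabbr1 had 42.3, 55.9, 50.5, 52.5 and 54.2 FPKM in Ednrb-/- libraries 1 to 5, against 40.0, 40.7, 41.5, 36.8 and 38.9 FPKM in WT libraries 1 to 5. Every Ednrb-/- library lay above every WT library, Ednrb-/- replicate 1 by the least. The means were 51.1 ± 5.29 FPKM in Ednrb-/- and 39.6 ± 1.81 FPKM in WT (SD, n = 5 each), and the log2 fold change was 0.36 (standard error 0.08; limma, adjusted p = 0.0133). Its partner Gabbr2, which couples the receptor to G proteins and brings it to the cell surface, had 1.71 ± 0.710 FPKM in Ednrb-/- and 1.75 ± 0.665 FPKM in WT libraries (limma, adjusted p = 0.956). Gabbr1 RNA was thus 20.0 to 51.9 times Gabbr2 RNA in Ednrb-/- and 16.6 to 42.1 times in WT libraries. The groups did not overlap in 2 of the 40 members tested, Gabbr1 among them, beside 4.78% of all genes tested that were higher in this way. No member was lower in every Ednrb-/- library than in any WT library, beside 8.44% of all genes.

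The 3 members that rose did so beside the neuron markers, whose median log2 fold change was 0.55. With the neuron markers' mean log2 level subtracted in each library, an alternative chosen after seeing the data, the differences were -0.18 for Gabbr1 (limma, adjusted p = 0.0836) and 0.09 for Glra2 (0.602). On that scale 0 members rose, none at an unadjusted p under 0.05 either, and 10 fell, beside 0.211% of all genes that rose and 60.8% that fell, with a shift of the all-gene median to -0.54. In whole explants, more cells that express a gene and more of its RNA per cell cannot be told apart, and the part of neuron content in these results was not tested further.

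Several GABA-A genes were measured at low levels and did not pass. Gabra3, an α subunit of immature neurons, had 4.66 ± 1.60 FPKM in Ednrb-/- and 3.36 ± 1.35 FPKM in WT libraries. Gabrb2 had 3.38 ± 0.863 FPKM in Ednrb-/- and 2.86 ± 0.507 FPKM in WT. Gabra5, whose product serves mainly outside synapses, had 1.39 ± 0.503 FPKM in Ednrb-/- and 0.999 ± 0.365 FPKM in WT. Gabrg1 and Gabra2 averaged under 1 FPKM, at 0.878 ± 0.190 and 0.738 ± 0.287 FPKM in Ednrb-/- and 0.671 ± 0.217 and 0.601 ± 0.200 FPKM in WT (SD, n = 5 each). These 5 GABA-A genes had positive log2 fold changes of 0.16 to 0.42, none past the threshold.

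Of the glycine receptor genes, Glra2 rose, and no other passed in the main fit. Glra2 encodes the α2 subunit, the form of the fetal nervous system, and occupies bases 168015726 to 168225454 of chromosome X (minus strand). It had 8.92, 12.2, 11.8, 11.2 and 14.5 FPKM in Ednrb-/- libraries 1 to 5, against 10.6, 6.01, 7.97, 6.91 and 5.88 FPKM in WT libraries 1 to 5. Only WT replicate 1 reached into the Ednrb-/- range, above Ednrb-/- replicate 1. The means were 11.7 ± 2.02 FPKM in Ednrb-/- and 7.47 ± 1.92 FPKM in WT (SD, n = 5 each), and the log2 fold change was 0.63 (standard error 0.17; limma, adjusted p = 0.0228). The limma call was lost without Ednrb-/- replicate 5 (adjusted p = 0.0583), WT replicate 4 (0.0567) or WT replicate 5 (0.0626).

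Glrb, encoding the β subunit that ties glycine receptors to the scaffold gephyrin, had a log2 fold change of the opposite sign that did not pass. It had 2.69, 4.26, 1.80, 2.21 and 2.13 FPKM in Ednrb-/- libraries 1 to 5, against 4.87, 2.35, 4.83, 4.68 and 4.42 FPKM in WT libraries 1 to 5. Apart from WT replicate 2, every WT library lay above every Ednrb-/- library. The log2 fold change was -0.61 (standard error 0.23; limma, adjusted p = 0.0885), and it was -0.79 without WT replicate 2 (0.0177) and -0.78 without Ednrb-/- replicate 2 (0.0287). Glra1, the α1 subunit of adult spinal receptors, had 4.38 ± 1.21 FPKM in Ednrb-/- and 3.35 ± 1.05 FPKM in WT libraries (SD, n = 5 each; limma, adjusted p = 0.310).

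Among nicotinic receptor genes the muscle β subunit gene Chrnb1 fell, at a low level in both genotypes. The gene occupies bases 72385837 to 72398031 of chromosome 11 (minus strand). Chrnb1 had 0.419, 0.637, 0.151, 1.48 and 0.302 FPKM in Ednrb-/- libraries 1 to 5, against 2.73, 1.23, 5.28, 4.61 and 2.66 FPKM in WT libraries 1 to 5. Only Ednrb-/- replicate 4 and WT replicate 2 crossed. The means were 0.598 ± 0.525 FPKM in Ednrb-/- and 3.30 ± 1.63 FPKM in WT (SD, n = 5 each), and the log2 fold change was -1.78 (standard error 0.37; limma, adjusted p = 0.00767). Between 7 and 210 reads per library lay behind these values. On the log2(FPKM + 0.5) scale a fold change understates the change of so low a gene, and by limma voom on the reads it was -2.69.

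The other muscle subunit genes were hardly read at all. Chrna1, Chrnd, Chrne and Chrng had at most 6 reads in any library, and Chrng had 1 read in all Ednrb-/- libraries together and 15 in all WT libraries. Of 17 skeletal muscle markers 6 were tested, of which 2 fell, the sarcomeric actin genes Acta1 and Actc1, and none rose. Their summed level was 4.55 to 23.4 FPKM in Ednrb-/- and 14.9 to 44.4 FPKM in WT libraries. The muscle fate gene Myod1 averaged 0.0690 FPKM in Ednrb-/- and 0.0219 FPKM in WT libraries, and the fast troponin gene Tnnc2 was listed at 0 in every library. Further markers below the filter went both ways. Tnnt3, Myl1 and Myh8 averaged 0.221, 0.132 and 0.0716 FPKM in Ednrb-/- and 1.06, 0.472 and 0.503 FPKM in WT. Myog, Tnnt1 and Myh3 averaged 0.304, 0.493 and 0.135 FPKM in Ednrb-/- and 0.0482, 0.381 and 0.0818 FPKM in WT. Most of the mesenchyme markers given above fell too, as did most Schwann cell precursor and melanoblast markers. With the mesenchyme mean as a covariate the log2 fold change of Chrnb1 was -0.44. In that fit 0 of all genes passed, Ednrb included (limma; 727 at an unadjusted p under 0.05). The mesenchyme sums do not overlap between the genotypes, so the fit cannot tell the marker level and the genotype apart. The part of any cell type in the fall of Chrnb1 was not tested.

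The neuronal nicotinic genes did not pass in the main fit, and Chrna4, Chrnb2, Chrna3 and Chrna7 were at higher levels than Chrnb1. Chrna4 encodes the α4 subunit, which with β2 forms the most common nicotinic receptor of the brain. It had 38.5, 32.4, 32.1, 34.4 and 27.1 FPKM in Ednrb-/- libraries 1 to 5, against 29.0, 58.5, 23.6, 29.7 and 30.7 FPKM in WT libraries 1 to 5. WT replicate 2 alone exceeded every Ednrb-/- library. The log2 fold change was 0.01 with all libraries (standard error 0.20; limma, adjusted p = 0.989) and 0.22 without WT replicate 2 (0.213).

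Chrnb2, its β2 partner, had 19.8, 17.9, 18.0, 21.0 and 18.6 FPKM in Ednrb-/- libraries 1 to 5, against 13.5, 20.2, 13.3, 13.5 and 14.9 FPKM in WT libraries 1 to 5. Again WT replicate 2 alone reached the Ednrb-/- range. Its log2 fold change was 0.35 (standard error 0.12; limma, adjusted p = 0.0603). It passed without WT replicate 2 (0.00296), under quantile normalization (0.0379) and by voom (0.0301). Its gene model shares 5231 bases with that of Adar on the opposite strand, and the strand setting of the counting is not stated in the labels or notes. Chrna7, whose product forms receptors of a single subunit type with high calcium flux, had 9.49, 10.7, 9.30, 12.6 and 8.04 FPKM in Ednrb-/- libraries 1 to 5, against 5.75, 11.7, 5.81, 6.23 and 6.98 FPKM in WT libraries 1 to 5. The other 4 WT libraries lay below every Ednrb-/- library. Its log2 fold change was 0.47 (limma, adjusted p = 0.109), and 0.64 without WT replicate 2 (0.00632).

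Chrna3, an α subunit of autonomic ganglia, had 15.8 ± 3.16 FPKM in Ednrb-/- and 13.4 ± 5.24 FPKM in WT libraries, the highest WT value being 22.5 FPKM in replicate 2 (limma, adjusted p = 0.400, and 0.0430 without that library). Chrna5, an accessory subunit, had 4.75 ± 1.22 FPKM in Ednrb-/- and 3.99 ± 0.952 FPKM in WT. Chrnb4, which pairs with α3 in ganglia, had 1.46 ± 0.853 FPKM in Ednrb-/- and 1.34 ± 0.610 FPKM in WT (SD, n = 5 each). Without WT replicate 2, in all, 7 members rose and 2 fell, beside 7.70% of all genes that rose and 14.0% that fell in that fit. Added to the 3 that rose were Chrna3, Chrna7, Chrnb2 and the kainate receptor gene Grik3, and added to Chrnb1 was Glrb.

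**Figure D3:**
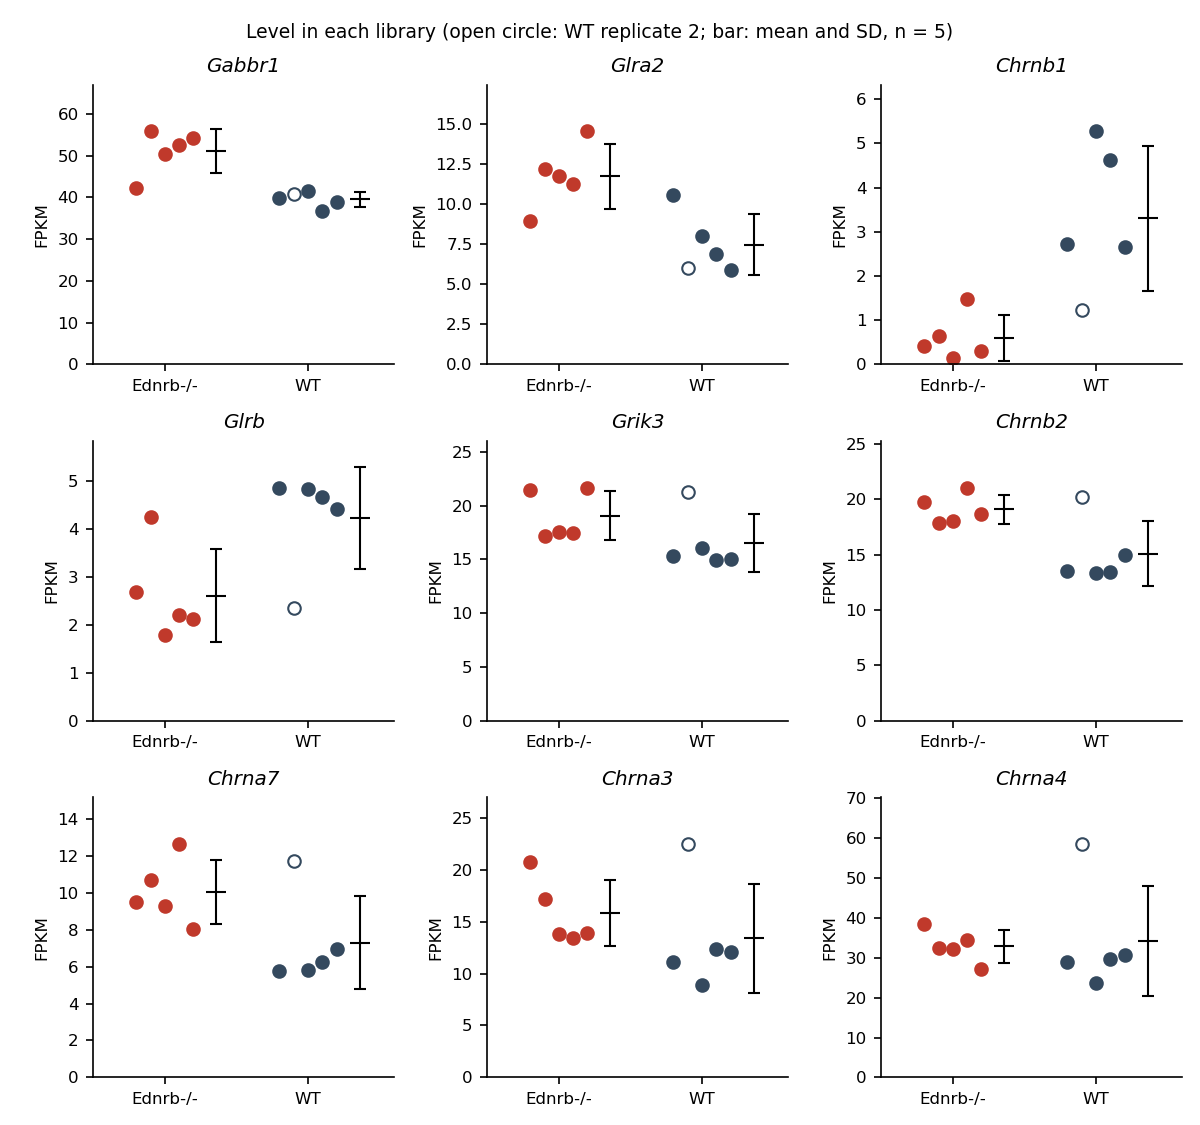
FPKM in every library of 9 receptor genes in Ednrb-/- (red) and WT explants (dark), with the mean and SD (n = 5) beside each group and WT replicate 2 as an open circle. Gabbr1 does not overlap between genotypes, and in Chrnb2, Chrna7, Chrna3 and Chrna4 the open circle stands above the other WT libraries.

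No ionotropic glutamate receptor gene passed in the main fit. Of the AMPA genes, which encode the channels of fast excitation, Gria2 had the highest mean level. Its product limits calcium entry once its RNA is edited. It had 6.20, 9.94, 8.97, 14.4 and 11.4 FPKM in Ednrb-/- libraries 1 to 5, against 9.37, 3.81, 11.4, 7.89 and 7.07 FPKM in WT libraries 1 to 5. The groups overlapped widely (log2 fold change 0.37, standard error 0.27; limma, adjusted p = 0.376). Gria4 had 7.60 ± 1.43 FPKM in Ednrb-/- and 5.57 ± 1.47 FPKM in WT, Gria3 had 4.90 ± 1.10 FPKM in Ednrb-/- and 6.02 ± 2.20 FPKM in WT, and Gria1 had 5.07 ± 0.771 FPKM in Ednrb-/- and 5.26 ± 0.613 FPKM in WT (SD, n = 5 each).

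Kainate receptor genes held 2 of the 7 highest levels. Grik5 encodes GluK5, which needs a partner such as GluK2 to form a channel. It had 32.2, 32.4, 29.7, 41.9 and 27.0 FPKM in Ednrb-/- libraries 1 to 5, against 26.8, 41.9, 28.9, 28.4 and 28.8 FPKM in WT libraries 1 to 5. A single library of each genotype, Ednrb-/- replicate 4 and WT replicate 2, stood above the rest (log2 fold change 0.08, standard error 0.14; limma, adjusted p = 0.740). Grik3 had 19.1 ± 2.28 FPKM in Ednrb-/- and 16.5 ± 2.67 FPKM in WT, with a log2 fold change of 0.21, and 0.30 without WT replicate 2 (limma, adjusted p = 0.0488). Grik2 had 5.36 ± 0.908 FPKM in Ednrb-/- and 4.14 ± 0.782 FPKM in WT (limma, adjusted p = 0.137, and 0.0333 under quantile normalization). Grik4 had 2.51 ± 0.765 FPKM in Ednrb-/- and 1.66 ± 0.152 FPKM in WT (limma, adjusted p = 0.107, 0.0362 under quantile normalization and 0.0469 without Ednrb-/- replicate 3). Grik1 had 2.99 ± 0.559 FPKM in Ednrb-/- and 2.93 ± 0.578 FPKM in WT (SD, n = 5 each). All 5 kainate genes had positive log2 fold changes in the main fit, of which none passed there.

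NMDA receptor genes were low, including Grin1, which encodes the subunit that every NMDA receptor contains. Grin1 had 0.884 ± 0.258 FPKM in Ednrb-/- and 0.932 ± 0.262 FPKM in WT libraries (SD, n = 5 each). The highest of the class was Grin2d, a subunit of embryonic and neonatal receptors. It had 1.65, 1.91, 1.67, 2.95 and 1.59 FPKM in Ednrb-/- libraries 1 to 5, against 1.34, 2.39, 1.50, 1.69 and 1.54 FPKM in WT libraries 1 to 5 (log2 fold change 0.16, standard error 0.19; limma, adjusted p = 0.610). WT replicates 2 and 4 lay within the Ednrb-/- range and the other 3 WT libraries below it. Grin2b had 1.35 ± 0.499 FPKM in Ednrb-/- and 1.26 ± 0.468 FPKM in WT, and Grin3a had 1.42 ± 0.285 FPKM in Ednrb-/- and 1.17 ± 0.164 FPKM in WT. Grin3b had 1.03 ± 0.723 FPKM in Ednrb-/- and 1.06 ± 0.523 FPKM in WT, and its model shares 2243 bases on the opposite strand with Tmem259, which had 25.2 FPKM in Ednrb-/- and 27.2 FPKM in WT.

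The delta receptor gene Grid1 encodes a relative of the AMPA subunits that organises synapses. Grid1 had 3.95, 4.26, 3.90, 3.23 and 3.39 FPKM in Ednrb-/- libraries 1 to 5, against 2.97, 3.27, 3.68, 3.35 and 2.87 FPKM in WT libraries 1 to 5 (log2 fold change 0.19, standard error 0.12; limma, adjusted p = 0.302). The groups overlapped.

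Of the metabotropic genes, Grm4, encoding a presynaptic receptor coupled to inhibitory G proteins, had the highest level. It had 1.94, 3.81, 2.45, 4.76 and 2.30 FPKM in Ednrb-/- libraries 1 to 5, against 1.40, 2.82, 1.39, 1.74 and 2.34 FPKM in WT libraries 1 to 5. The groups overlapped, and the log2 fold change was 0.52 (standard error 0.25; limma, adjusted p = 0.167). Grm2 had 0.975 ± 0.215 FPKM in Ednrb-/- and 0.607 ± 0.291 FPKM in WT libraries. The other 3 tested were Grm3 with 1.09 ± 0.552 FPKM in Ednrb-/- and 1.37 ± 0.395 FPKM in WT, Grm5 with 1.17 ± 0.546 FPKM in Ednrb-/- and 1.31 ± 0.379 FPKM in WT, and Grm7 with 0.939 ± 0.125 FPKM in Ednrb-/- and 0.803 ± 0.325 FPKM in WT (SD, n = 5 each).

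The 28 members that did not enter the test were 12 GABA-A, 9 nicotinic, 3 metabotropic, 2 NMDA and 2 glycine genes. Highest among them was Grin2c, with up to 1.95 FPKM (152 reads) in WT replicate 2 and 1.36 FPKM in Ednrb-/- replicate 1. Gabre followed with up to 1.44 FPKM (107 reads), in WT replicate 3. Gabre encodes the ε subunit and had 0.160 ± 0.0964 FPKM in Ednrb-/- and 0.636 ± 0.480 FPKM in WT libraries (SD, n = 5 each). In a fit without the filter its log2 fold change was -0.71 (limma, adjusted p = 0.115).

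Below them, the highest value in any library was 0.674 FPKM (47 reads) for Gabrq, 0.470 (51 reads) for Gabra4, 0.338 (55) for Grm8, 0.336 (14) for Gabrr2 and 0.305 (93) for Grin2a. Grin2a is an NMDA subunit gene that is switched on mostly after birth. Further down, the highest values were 0.262 FPKM (58 reads) for Gabrb1, 0.231 (7) for Gabrr3, 0.158 (5) for Glra4, 0.108 (21) for Gabrg3 and 0.107 (6) for Chrng. Another 10, Chrna1, Chrna2, Chrna9, Chrna10, Chrnb3, Chrnd, Chrne, Gabrd, Glra3 and Grm6, reached at most 0.0753 FPKM and at most 4 reads in any library. Gabra6, Gabrp, Gabrr1 and Chrna6 had 0 reads in every library, which allows up to 3 reads, or 0.0449 to 0.101 FPKM depending on gene and library, counting error only.

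In every class most shares of subunit RNAs overlapped between genotypes, and those given here are examples. The following shares are percentages of a class's summed FPKM, given as a description without a test, and the members that passed above enter them. Glycine receptor genes summed to 18.8 ± 1.90 FPKM in Ednrb-/- and 15.1 ± 1.94 FPKM in WT libraries. Every glycine receptor share overlapped. Glra2 RNA was 2.87 to 6.84 times Glrb RNA in Ednrb-/- and 1.33 to 2.56 times in WT, with no overlap. The other ratios formed overlapped. They were Glra2 over Glra1, Gabbr1 over Gabbr2, Gria2 over Gria1, Grin1 over Grin2b, Chrna3 over Chrna4, Chrna7 over Chrna4 and Chrna4 over Chrnb2. The pairs were picked by hand, and Glra2 over Glrb sets a member that rose over one with a negative log2 fold change. How often shares or ratios separate in this way over all genes was not computed. Neuronal nicotinic genes made up nearly all of the nicotinic sum of 84.7 ± 9.51 FPKM in Ednrb-/- and 78.9 ± 24.3 FPKM in WT (SD, n = 5 each), the highest sum being 121 FPKM in WT replicate 2. Within it the Chrna7 share was 9.78 to 14.1% in Ednrb-/- and 8.46 to 9.67% in WT, without overlap. The Chrng share did not overlap either, on at most 6 reads in any library. Of the GABA-A sum, Gabre made up 0.0744 to 0.828% in Ednrb-/- and 1.14 to 4.02% in WT, also without overlap. Chrnb1 made up 0.189 to 1.65% of the nicotinic sum in Ednrb-/- and 1.01 to 8.69% in WT, with overlap. For AMPA genes the largest mean gap was that of Gria3, at 15.1 to 20.0% in Ednrb-/- and 18.5 to 28.1% in WT libraries.

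**Figure D4:**
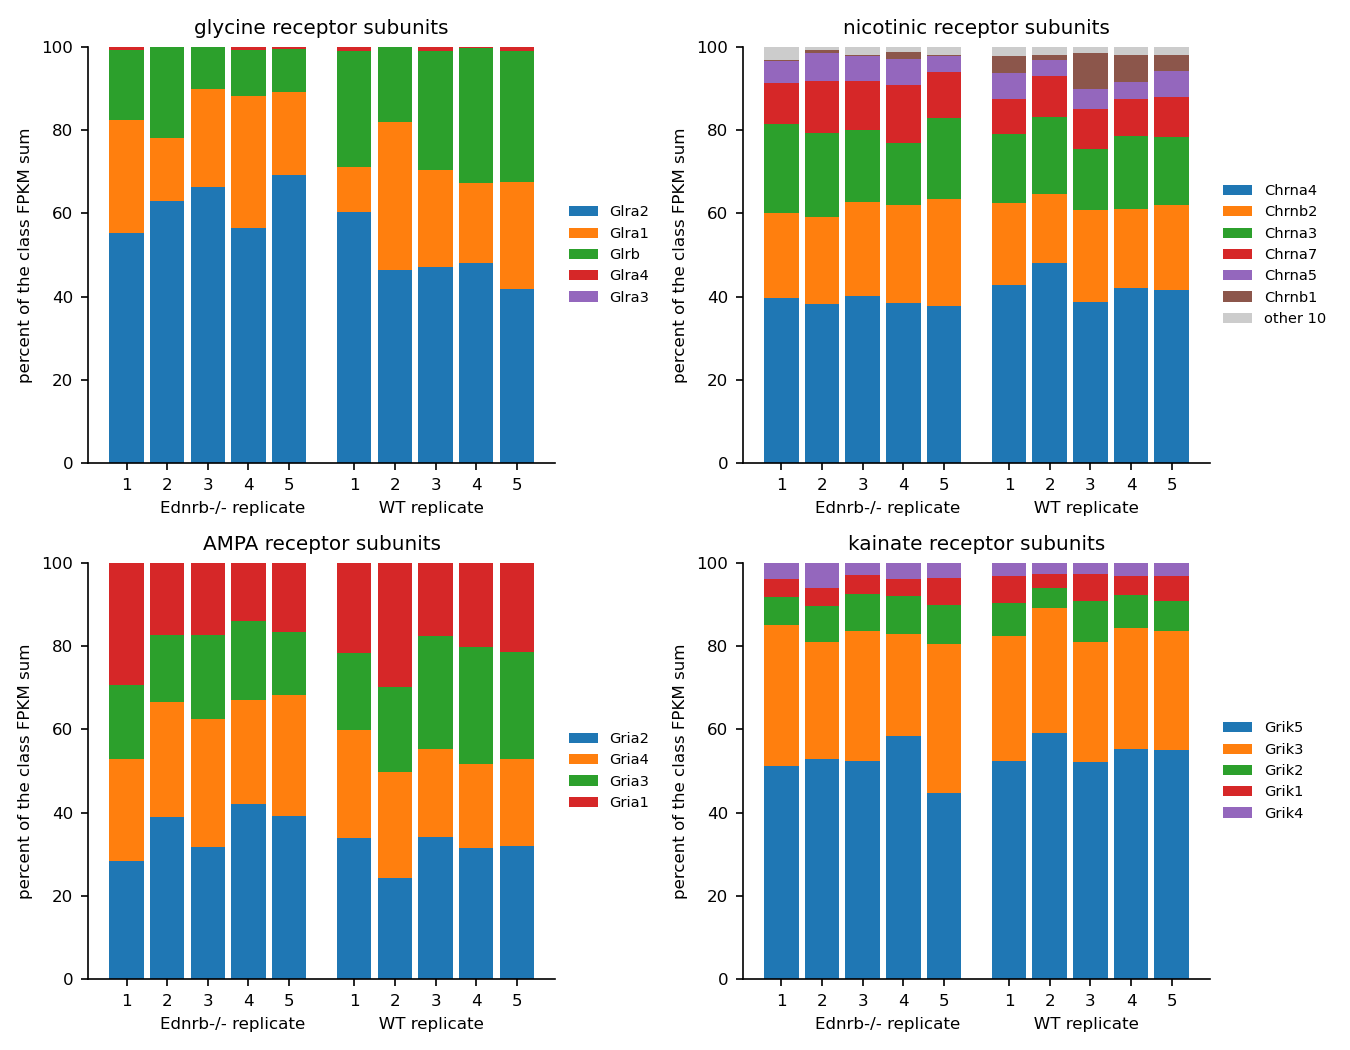
Percent of the summed FPKM of 4 receptor classes taken by each subunit gene, in each library of Ednrb-/- (left bars) and WT explants (right bars). Glrb averages 14.0% of the glycine receptor sum in Ednrb-/- and 27.7% in WT libraries, with overlap.

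Several members are neighbours on a chromosome. On chromosome 5 from 73550687 to 75043812 the 4 genes Gabrg1, Gabra2, Gabra4 and Gabrb1 all averaged under 1 FPKM in both genotypes. On chromosome 9 from 55560615 to 55630831 the ganglionic genes Chrna5, Chrna3 and Chrnb4 stood at 4.75, 15.8 and 1.46 FPKM in Ednrb-/- and 3.99, 13.4 and 1.34 FPKM in WT libraries.

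Sequences upstream of the start sites are shown for Glra2, Gabbr1 and Chrnb1, which passed, and for Grm2, because it alone shares with Glra2 a pair of motifs. RefSeq promoter windows matched 48 of the 68 members. The sequences are the 250 bases before the start, 5′ to 3′ on the gene's strand, from RefSeq with build GRCm38.p6, which is not the build of the coordinates above. Capitals mark the letters TTCAGCAC and GGACAGC, which are the left and right arms of the RE1 element bound by REST, a repressor of neuronal genes outside neurons, and CCGCCC, the GC box, each searched on both strands. The window of Glra2 is chrX:165327394-165327643 on the minus strand, that of Grm2 is chr9:106656110-106656359 on the minus strand, that of Gabbr1 is chr17:37045716-37045965 on the plus strand and that of Chrnb1 is chr11:69795938-69796187 on the minus strand.
Glra2: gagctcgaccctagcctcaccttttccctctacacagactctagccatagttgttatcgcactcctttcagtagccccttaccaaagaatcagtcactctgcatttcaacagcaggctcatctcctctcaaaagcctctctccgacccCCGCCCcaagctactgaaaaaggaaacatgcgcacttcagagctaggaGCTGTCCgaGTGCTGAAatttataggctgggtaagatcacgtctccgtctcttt
Grm2: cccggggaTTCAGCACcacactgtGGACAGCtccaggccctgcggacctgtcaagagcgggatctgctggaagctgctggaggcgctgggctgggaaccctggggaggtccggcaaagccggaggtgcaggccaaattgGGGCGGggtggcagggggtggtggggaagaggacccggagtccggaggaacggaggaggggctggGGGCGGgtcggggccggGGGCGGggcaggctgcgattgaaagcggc
Gabbr1: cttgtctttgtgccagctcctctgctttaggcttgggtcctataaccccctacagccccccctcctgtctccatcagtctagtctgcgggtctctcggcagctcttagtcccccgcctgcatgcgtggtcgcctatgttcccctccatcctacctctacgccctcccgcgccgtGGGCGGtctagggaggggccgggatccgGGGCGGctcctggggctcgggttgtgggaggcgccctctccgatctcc
Chrnb1: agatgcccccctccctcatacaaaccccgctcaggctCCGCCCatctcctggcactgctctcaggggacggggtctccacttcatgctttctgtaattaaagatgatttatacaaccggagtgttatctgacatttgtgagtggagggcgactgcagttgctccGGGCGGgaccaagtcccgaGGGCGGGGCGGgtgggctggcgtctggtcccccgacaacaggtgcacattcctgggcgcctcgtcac
In Glra2 both RE1 arms lie on the opposite strand, the right arm beginning 54 and the left arm 45 bases before the start, beside a single GC box. In Grm2 the left arm begins 242 and the right arm 226 bases before the start, on the gene's own strand. The windows of Gabbr1 and Chrnb1 hold neither arm, and 2 and 4 GC boxes. In the 250 bases before each of 32817 starts, TTCAGCAC was found in 0.963%, GGACAGC in 5.28% and CCGCCC in 32.7%. Both RE1 arms, counted at any spacing and on either strand, were found in 25 windows. Of 56 windows of members, 2, 4 and 26 held the letters of each motif and 2 held both arms. A match describes letters in a window and does not show a site that is bound.

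Among the proteins that assemble, escort and modulate these receptors, the AMPA receptor partners Cnih2, Nsg1, Nsg2 and Cacng7 rose, and the GABA-B partner Kctd12 and the Ly6 family gene Ly6e fell. In a list of 32 auxiliary and trafficking genes, all of them tested, 8 rose and 4 fell by limma, with a median log2 fold change of 0.21. That is 25% and 12.5%, beside 6.53% and 13.0% of all genes tested. The count that rose was 6 to 10 with each library left out in turn and the count that fell 3 to 4. The 8 also held Tmem35a, Ric3, Neto2 and Lhfpl4, partners of other receptor classes, with log2 fold changes of 1.23, 0.46, 0.45 and 0.30. Ric3 and Lhfpl4 did not pass without WT replicate 5 (limma, adjusted p = 0.0546 and 0.0718), among other libraries. Other AMPA partners did not pass, with log2 fold changes from -0.44 for Cnih3 to 0.48 for Shisa9. Cnih2, a cornichon that slows AMPA channel closing, had 105 ± 4.07 FPKM in Ednrb-/- and 74.6 ± 4.68 FPKM in WT libraries (SD, n = 5 each; adjusted p = 0.00276 by limma). The endosomal proteins Nsg1 and Nsg2, which recycle AMPA receptors, rose by log2 fold changes of 0.50 and 0.53, and Cacng7, of the family of transmembrane AMPA regulators, by 0.41. With the neuron mean subtracted, the values of Cnih2, Nsg1, Nsg2 and Cacng7 were -0.05, -0.04, -0.01 and -0.13.

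Of the partner genes that fell, Kctd12, an auxiliary subunit of the GABA-B receptor, had the lowest p. It had 8.73, 8.34, 6.02, 7.08 and 6.92 FPKM in Ednrb-/- libraries 1 to 5, against 20.1, 20.7, 15.9, 14.1 and 27.7 FPKM in WT libraries 1 to 5. The groups did not overlap, and the log2 fold change was -1.32 (standard error 0.17; limma, adjusted p = 0.00276), opposite in sign to Gabbr1. Ly6e, of the Ly6 family whose members bind nicotinic receptors, had 8.25 ± 2.11 FPKM in Ednrb-/- and 23.0 ± 9.86 FPKM in WT libraries (SD, n = 5 each; limma, adjusted p = 0.00963). Tmem35a, Lynx1, Ric3, Neto2, Lhfpl4, Cnih3 and Shisa9 are named after their values were seen. Tmem35a, the chaperone NACHO that neuronal nicotinic receptors need for assembly, had 57.7 ± 23.5 FPKM in Ednrb-/- and 23.1 ± 5.85 FPKM in WT, a log2 fold change of 1.23 (limma, adjusted p = 0.00969), and it was 0.69 with the neuron mean subtracted (0.0217). Lynx1, a brake on nicotinic receptors, fell by 1.27 on the log2 scale (limma, adjusted p = 0.0181, and 0.0504 without WT replicate 4). Of 11 Schwann cell precursor and melanoblast markers tested 10 fell too, as did 14 of 15 mesenchyme markers, while the mesenchyme marker Dcn rose. Among WT libraries Ly6e and Lynx1 were lowest in replicate 2 and highest in replicate 3, as was the summed mesenchyme level. The part of these markers in the falls of these genes was not tested.

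Of 28 genes of postsynaptic scaffolds, 24 were tested, 2 rose and 3 fell, with a median log2 fold change of 0.11. That is 8.33% and 12.5%, close to the 6.53% and 13.0% of all genes tested, so the counts do not set the list apart. Dlg4 (PSD-95) and Dlg3 (SAP102), which hold glutamate receptors at synapses, rose by log2 fold changes of 0.31 and 0.28 (limma, adjusted p = 0.0368 and 0.0270). Neither passed without Ednrb-/- replicate 5 (0.0926 and 0.0577), WT replicate 4 (0.0948 and 0.0647) or WT replicate 5 (0.0906 and 0.0718), nor after rescaling to TPM (0.0570 and 0.0677), and Dlg4 also did not pass without Ednrb-/- replicate 2 (0.0779), Ednrb-/- replicate 4 (0.0597) or WT replicate 3 (0.0722). With the neuron mean subtracted, the values of Dlg4 and Dlg3 were -0.23 and -0.26 (limma, adjusted p = 0.0412 and 0.0478). On that scale 60.8% of all genes fell. Dlg1 (SAP97), found in epithelia as well as at synapses, had 5.85 ± 0.445 FPKM in Ednrb-/- and 9.82 ± 1.85 FPKM in WT libraries (SD, n = 5 each; limma, adjusted p = 0.00516). Agrn and Lrp4 encode agrin and its receptor, which cluster nicotinic receptors at the neuromuscular junction. They fell by 0.45 and 0.89 on the log2 scale (limma, adjusted p = 0.0210 and 0.0244). Agrn did not pass without WT replicate 5 (0.0594), and Lrp4 did not pass without Ednrb-/- replicate 5 (0.0521), WT replicate 3 (0.0625) or WT replicate 4 (0.0568). Rapsn, Musk and Dok7, the muscle side of that machinery, lay below the filter. Gphn encodes gephyrin, the scaffold of glycine and GABA-A receptors, and was chosen for mention after the test. It had 18.5 ± 2.47 FPKM in Ednrb-/- and 14.7 ± 1.57 FPKM in WT (limma, adjusted p = 0.0579).

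**Figure D5:**
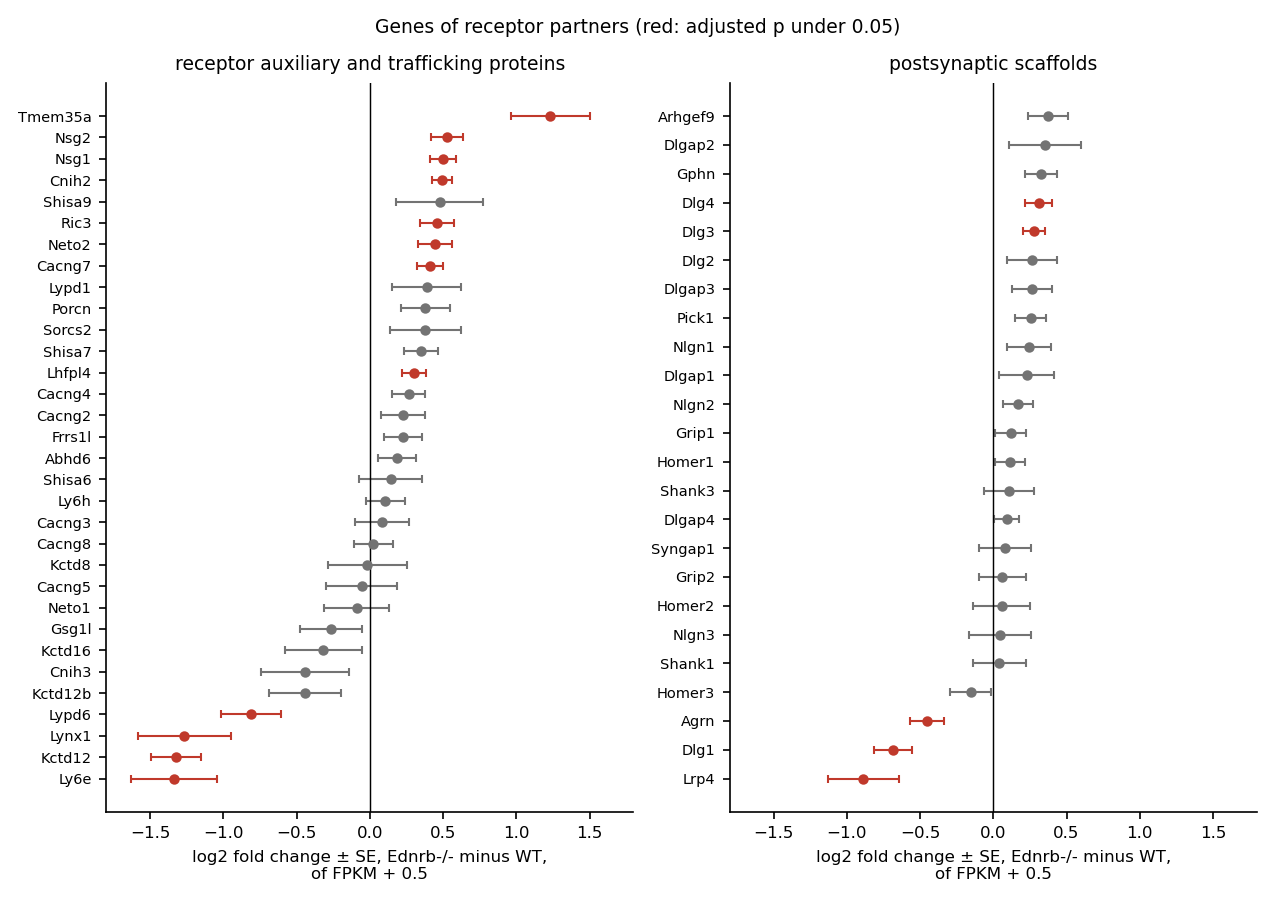
Log2 fold change with its standard error, Ednrb-/- minus WT, of the tested genes of both partner lists, with genes past the threshold in red. On the left 8 of 32 auxiliary and trafficking genes lie to the right of 0 in red and 4 to the left, and on the right 2 of 24 scaffold genes rose and 3 fell.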

How the data were processed

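The 10 libraries were deposited as a single table of FPKM values per gene, made by the authors per the file headers. The tools listed in the submitters' processing notes are fastp, HISAT2 2.0.5 and featureCounts 1.5.0-p3, with the build mm10 and no settings. Gene identifiers are those of the C57BL/6NJ assembly, so coordinates are printed as deposited. Column names gave the sample of every column, leaving 0 further columns. FPKM times gene length gave whole reads for 100% of values within 0.01, and the authors' divisor was 0.953 to 1.03 times their sum.

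Genes with at least 0.5 FPKM in at least 5 libraries were fitted in limma 3.58.1 (R 4.3.3, limma-trend) as log2(FPKM + 0.5) on genotype, without covariates, and two-sided p-values were adjusted by Benjamini-Hochberg over 15156 genes. Fold changes on this scale understate the change of low genes. The verbs "rose" and "fell" mean an adjusted p under 0.05. Alternatives were other pseudocounts (0.1, 1) and filters, TPM rescaling, quantile normalization, limma voom on the recovered reads with library sums, a replicate block, marker covariates, each library left out in turn and, added after seeing the data, subtraction of the neuron markers' mean. In reads simulated for this comparison over 15771 genes, 28.4%, 71.6% and 98.5% of genes changed 1.5-, 2- and 4-fold were recovered, with 10 false calls beside 132 true ones. The simulation drew noise for each gene independently and changed few genes. It held no shift shared by many genes, so these rates need not apply to the real libraries. Voom on the recovered reads called 1236 genes higher and 1904 lower.

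The members and all gene lists were chosen with earlier results of these data known. Some members enter the fits and counts and are not reported here singly. Values in every library are given for the other members past the threshold and the other highest members of a class, with up to 6 genes of each partner list by lowest p. Per-library values of Glrb, Chrnb2, Chrna7 and Kctd12 were added after their values were seen. Markers of neural progenitors (1 of 15 tested rose and 3 fell), astroglia (0 and 1 of 5), motor neurons (2 and 0 of 9), sympathetic and enteric neurons (0 and 1 of 6) and sensory neurons (0 and 0 of 5) were also read. Within a genotype any 2 libraries correlated at 0.925 to 0.979 and differed beyond sampling noise, so each was counted as 1 replicate.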

Additional observations from a re-analysis of the deposited data

Results flagged for a closer look

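In 12 of the 80 groups of 5 libraries formed by the 40 tested members and both genotypes, 1 library lay far from the other 4, its gap to the nearest being over 0.71 of the group's range. Chance alone gives about 5% of groups. WT replicate 2 was that library in 8 of the 12. It was the highest WT library for Chrna4 (58.5 FPKM, others 23.6 to 30.7), Grik5 (41.9, others 26.8 to 28.9), Chrna3 (22.5, others 8.92 to 12.4), Grik3 (21.2, others 14.9 to 16.1), Chrnb2 (20.2, others 13.3 to 14.9), Chrna7 (11.7, others 5.75 to 6.98) and Grik4 (1.93, others 1.53 to 1.64). It was the lowest for Glrb (2.35 FPKM, others 4.42 to 4.87).

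In Ednrb-/- explants, Gria1 was highest in replicate 1 (6.41 FPKM, others 4.42 to 4.90) and Grin2d in replicate 4 (2.95, others 1.59 to 1.91). Grm3 was highest in Ednrb-/- replicate 2 (2.04 FPKM, others 0.609 to 1.01). Chrna5 was lowest in Ednrb-/- replicate 5 (2.64 FPKM, others 4.85 to 5.61).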

How the results depend on the processing

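Chrnb1 passed the threshold under all 18 alternatives that use no marker mean, Gabbr1 under 17 of them and Glra2 under 14. The numbers of members that rose and fell were 3 and 1. They were 6 and 1 under quantile normalization, 0 and 0 with either marker mean as a covariate and 0 and 10 with the neuron mean subtracted, and they ran from 2 to 7 and from 1 to 2 with 1 library left out. Over all genes 990 rose and 1966 fell. The number that rose was 659 with no filter, 1603 under quantile normalization and 32 with the neuron mean subtracted, where 9220 fell. With either covariate 0 rose and 0 fell (452 genes for neurons and 727 for mesenchyme at an unadjusted p under 0.05, 0 and 1 of them members) and Ednrb itself did not pass. The summed levels of both marker lists do not overlap between the genotypes. With 1 library left out, 511 to 1151 genes rose and 1385 to 2089 fell.

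Signs turned in the cases below, for which the cause was not tested. The cases are given for some members only, and others turned too. On the scale with the neuron mean subtracted, 2 tested members had a positive value, against 30 in the main fit. With the neuron covariate the log2 fold change was -0.53 for Gria2, -0.12 for Grik4, -0.39 for Grm4, -0.073 for Gabbr1 and -0.15 for Glra2. With the mesenchyme covariate it was -0.032 for Grik3, 0.074 for Glrb, -2.2e-05 for Chrna3 and -0.30 for Chrna4. With the neuron mean subtracted it was -0.17 for Gria2, -0.38 for Grin2d, -0.20 for Grik2, -0.34 for Grik3, -0.10 for Grik4, -0.46 for Grik5, -0.35 for Grid1, -0.021 for Grm4, -0.18 for Gabbr1, -0.26 for Chrna3, -0.53 for Chrna4, -0.072 for Chrna7 and -0.19 for Chrnb2. It was -0.015 for Chrna4 after TPM rescaling. With 1 library left out it ran from -0.013 to 0.19 for Grik5 and from -0.11 to 0.22 for Chrna4.

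Same-numbered libraries deviated from their group means with correlations of -0.03, 0.01, -0.15, 0.15 and -0.16. The labels do not state whether the numbers pair libraries, and these correlations cannot decide it. With a replicate block 419 genes and 1 member rose, while Gabbr1 (limma, adjusted p = 0.0549) and Glra2 (0.0880) did not pass, and Dlg3, Dlg4 and Lrp4 did not either (0.105, 0.111 and 0.0710). Depth limits the low members most: Chrnb1 rests on 7 to 210 reads a library, and the 28 members below the filter were not tested.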
